A study of Mus musculus with 8 samples.

Results

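The imprinted Peg10-Sgce-Calcr cluster is a stretch of mouse chromosome 6 in which several genes are read mainly or only from the chromosome inherited from 1 parent. Its 9 genes examined here, Peg10, Sgce, Casd1, Ppp1r9a, Calcr, Asb4, Pon2, Pon3 and Pdk4, were selected by gene symbol out of 32531 genes counted in each library. The list was chosen with the region difference of these same libraries known, so the members' levels and fold changes between regions are given as a description and without a p-value. The libraries hold RNA bound to tagged ribosomes from nucleus accumbens (4 libraries) and from dorsal striatum (4 libraries) of untreated mice aged more than 20 months. All animals carried the Drd1-EGFP/Rpl10a (CP73) transgene, in which the D1 dopamine receptor promoter drives a green fluorescent fusion of ribosomal protein L10a, so only cells in which that promoter is active give tagged polysomes. Tagged polysomes were pulled down with antibodies against the fluorescent protein. The labels do not state whether a library came from 1 mouse or from pooled mice, nor the sex or strain background. The p-values given for other genes therefore set the region difference against the spread between these libraries, which may not be that between mice.

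Genomic imprinting silences 1 parental copy of a gene, and in this cluster the differentially methylated region between Peg10 and Sgce carries the parental mark. In mice Peg10 and Sgce are read from the paternal copy, while Calcr, Asb4 and Ppp1r9a have been described as preferentially maternal in particular tissues. The nucleus accumbens and the dorsal striatum share the direct-pathway projection neurons that express the D1 receptor, the accumbens being tied more to motivation and the dorsal striatum more to the control of movement. Gene counts do not separate the parental copies, so nothing below measures imprinting itself.

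Library totals ran from 10831937 to 12639641 gene counts in accumbens and from 7466970 to 10363145 in dorsal striatum. A count of 3, the floor for calling a gene detected, corresponds to 0.237 to 0.269 CPM (counts put on one common library total) in accumbens and 0.296 to 0.415 CPM in dorsal striatum. Drd1, the gene whose promoter drives the tag, averaged 435 ± 86.5 CPM in accumbens and 605 ± 60.9 CPM in dorsal striatum (SD, n = 4 each, log2 fold change -0.47 ± 0.14 SE, edgeR quasi-likelihood adjusted p = 0.0750). Drd2, the receptor of indirect-pathway neurons, averaged 56.0 ± 11.7 CPM in accumbens and 25.8 ± 7.97 CPM in dorsal striatum (log2 fold change 1.11 ± 0.25 SE, edgeR adjusted p = 0.0167). Summed over their marker lists, direct-pathway genes stood at 1943 to 2192 CPM in accumbens and 2282 to 2585 CPM in dorsal striatum, and indirect-pathway genes at 628 to 908 CPM in accumbens and 223 to 333 CPM in dorsal striatum. Direct-pathway transcripts were thus abundant in every library, and the indirect-pathway sum was higher in each accumbens library than in any dorsal one. Markers shared by all striatal projection neurons summed to 7433 to 8404 CPM in accumbens and 10858 to 12221 CPM in dorsal striatum, also without overlap. In such bulk samples fewer cells of a type and less RNA per cell cannot be told apart. Accumbens 2 and dorsal striatum 3 lay at opposite ends of the first principal component, which held 26.5% of the variance, and every call was repeated without both of them.

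In GENCODE M21 on GRCm38 the members run over 1.81 Mb in the order Calcr (chr6:3685680-3764714, minus strand), Casd1 (chr6:4600839-4643355, plus), Sgce (chr6:4674350-4747207, minus), Peg10 (chr6:4747306-4760517, plus), Ppp1r9a (chr6:4902917-5165661, plus), Pon3 (chr6:5220852-5256286, minus), Pon2 (chr6:5264147-5298455, minus), Asb4 (chr6:5383386-5433022, plus) and Pdk4 (chr6:5483351-5496309, minus). Peg10 and Sgce start head to head, with 98 bases between them on opposite strands. Of the 9 members, Pon2 alone has an exon overlapping another annotated gene, Gm44424, over 680 bases on the other strand. Because the strand setting of the counting was not given, reads of those 2 genes cannot be told apart there.

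Upstream sequence was matched by symbol to RefSeq promoters on GRCm38.p6, and 7 of the 9 members had an entry. Calcr is shown because it has the largest region ratio of any member tested and RefSeq start sites of contrasting composition. Pon2 is shown as another low-count member with a CpG-rich start. Each is printed 5′ to 3′ on the gene's own strand, upstream of the start and free of annotated exons, with the GC box GGGCGG or its complement CCGCCC in capitals where it occurs.
Calcr, inner start (chr6:3763631-3763873, minus strand): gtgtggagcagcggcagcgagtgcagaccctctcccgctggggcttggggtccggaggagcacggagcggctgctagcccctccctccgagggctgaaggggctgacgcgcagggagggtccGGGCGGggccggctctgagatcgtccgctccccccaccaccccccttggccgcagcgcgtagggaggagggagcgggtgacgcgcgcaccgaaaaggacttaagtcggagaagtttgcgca
Calcr, outer start (chr6:3764715-3764963, minus strand): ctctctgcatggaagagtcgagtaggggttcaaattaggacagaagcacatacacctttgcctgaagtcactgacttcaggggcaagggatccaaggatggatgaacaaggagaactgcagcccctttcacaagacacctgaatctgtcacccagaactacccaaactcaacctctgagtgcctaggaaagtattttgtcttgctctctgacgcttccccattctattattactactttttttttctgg
Pon2 (chr6:5298456-5298590, minus strand): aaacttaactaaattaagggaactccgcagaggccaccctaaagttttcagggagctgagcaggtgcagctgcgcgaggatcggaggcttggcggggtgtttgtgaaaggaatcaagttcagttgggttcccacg

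The 250 bases upstream of the inner Calcr start held 24 CpG dinucleotides at 70.8% GC, a CpG content 0.775 times that predicted from base composition. The 250 bases upstream of the outer start held 2 CpG dinucleotides at 46% GC, or 0.153 times the prediction. Those of Pon2 held 24 CpG at 65.6% GC, or 0.949 times the prediction, while the median over 32851 RefSeq promoters was 52.4% GC and 0.373. A GC box on either strand was present in 32.7% of all these promoters, occurred 1 time upstream of the inner Calcr start, 3 times upstream of Pon2 and not upstream of the outer Calcr start. The 3 Pon2 boxes lie outside the printed stretch, toward the RefSeq start, where the 250 bases overlap an annotated Pon2 exon. That start lies inside the GENCODE Pon2 gene, so upstream is relative to RefSeq only. Counts per gene do not show which Calcr start was used.

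Peg10 derives from a retrotransposon of the Ty3/gypsy kind and keeps gag-like and pol-like reading frames that are joined by ribosomal frameshifting. Its protein is needed for the mouse placenta and can form virus-like particles. Peg10 stood at 1165, 1363, 1493 and 985 CPM in accumbens libraries 1 to 4, against 243, 270.1, 202 and 412 CPM in dorsal striatum libraries 1 to 4. Every accumbens library was above every dorsal one, with a wide gap between accumbens 4 and dorsal striatum 4, the nearest pair. The means were 1251 ± 223 CPM in accumbens and 282 ± 90.9 CPM in dorsal striatum (SD, n = 4 each), a 4.44-fold ratio and a log2 fold change of 2.15 ± 0.19 SE, which lay between 1.98 and 2.39 over 18 alternative ways of processing the counts.

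Peg10 took 0.103% to 0.149% of all gene counts in accumbens and 0.0196% to 0.0403% in dorsal striatum. By count it ranked between 43 and 93 among all genes of an accumbens library, and between 433 and 1076 in a dorsal library. Within the cluster it made up 36.2% to 47.9% of the summed counts of the 9 members in accumbens and 7.41% to 16.7% in dorsal striatum. The transcript thus belonged to the most heavily counted genes of the accumbens libraries and not of the dorsal ones. Dorsal striatum 4 was the highest dorsal library and accumbens 4 the lowest accumbens library on each of these measures.

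**Figure D1:**
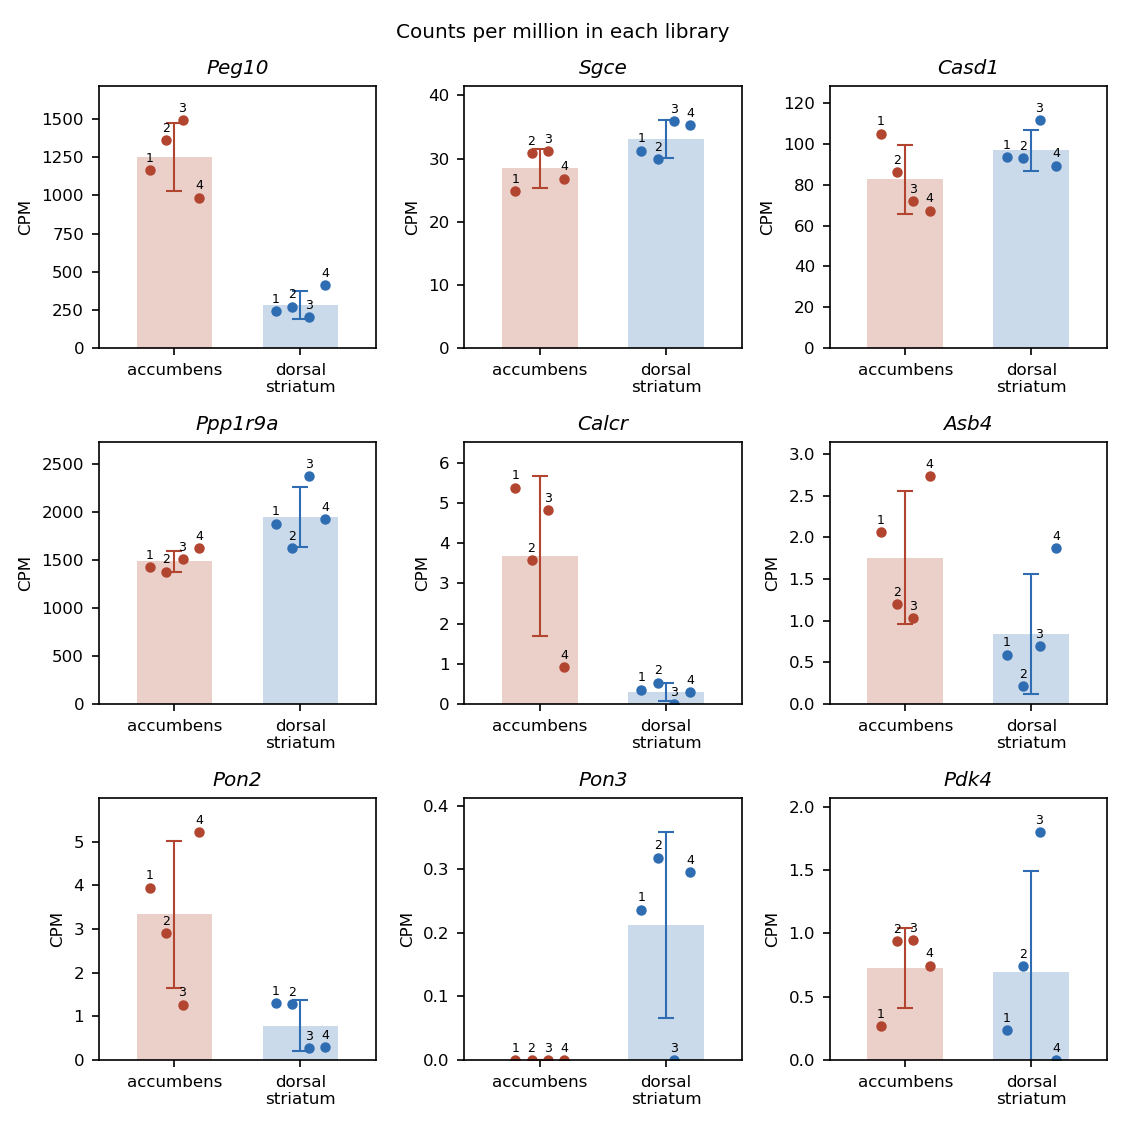
Levels of the 9 members in CPM on TMM-scaled library sizes, 1 panel per gene with its own axis from 0. Bars are group means, error bars are SD (n = 4) and points are libraries numbered by replicate, with accumbens left of dorsal striatum. Peg10 and Calcr show no overlap between regions, whereas Sgce, Casd1, Ppp1r9a, Asb4, Pon2, Pon3 and Pdk4 do overlap.

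Sgce encodes epsilon-sarcoglycan, a membrane protein of the dystrophin-associated complex, and loss of its paternal copy causes myoclonus-dystonia in humans. It stood at 24.9, 30.9, 31.2 and 26.8 CPM in accumbens libraries 1 to 4, against 31.2, 29.9, 36.0 and 35.3 CPM in dorsal striatum libraries 1 to 4. The regions overlapped, with accumbens 2 and 3 inside the dorsal range and accumbens 1 and 4 below it. Means were 28.4 ± 3.12 CPM in accumbens and 33.1 ± 2.98 CPM in dorsal striatum (SD, n = 4 each, log2 fold change -0.22 ± 0.22 SE).

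The counts of Peg10 per count of Sgce, which need no scaling between libraries, were 46.9, 44.1, 47.8 and 36.7 in accumbens and 7.78, 9.03, 5.62 and 11.7 in dorsal striatum. Per count of Ppp1r9a, Peg10 stood at 0.816, 0.987, 0.987 and 0.604 in accumbens and at 0.129, 0.166, 0.0851 and 0.214 in dorsal striatum. Both ratios separated the regions without overlap. By contrast, counts of Casd1 per count of Sgce were 2.31 to 4.23 in accumbens and 2.54 to 3.11 in dorsal striatum, where the dorsal range lay within the accumbens range. These ratios compare changes of 2 genes within a library and do not show which gene of a pair moved.

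**Figure D2:**
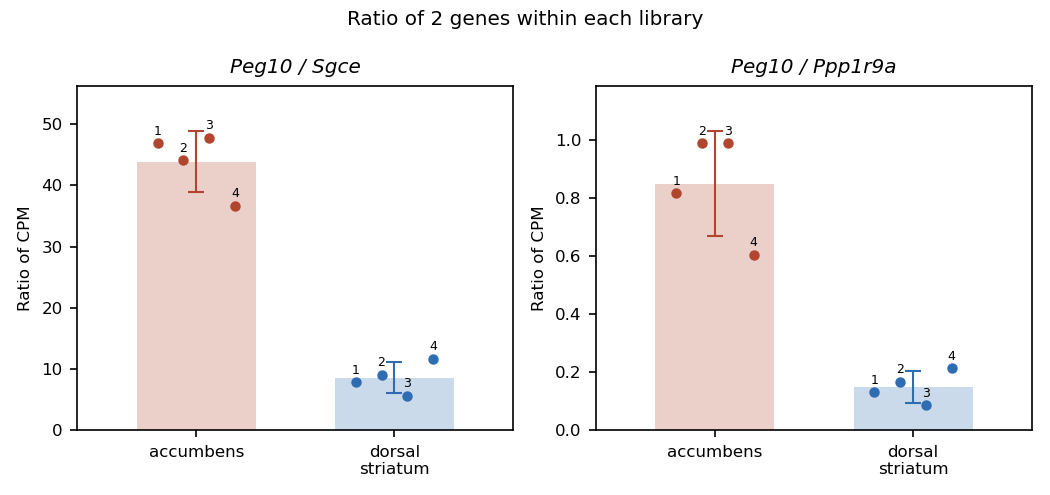
Ratio of the CPM of 2 members within each library (equal to the ratio of their counts) on axes from 0, with accumbens left of dorsal striatum, bars as means, error bars as SD (n = 4) and points as libraries numbered by replicate. Peg10 per Sgce lay between 36.7 and 47.8 in accumbens and between 5.62 and 11.7 in dorsal striatum, and Peg10 per Ppp1r9a likewise showed no overlap.

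Casd1 encodes the enzyme that adds acetyl groups to sialic acids. It stood at 105, 86.3, 72.2 and 67.4 CPM in accumbens, against 93.6, 93.1, 112 and 89.5 CPM in dorsal striatum (means 82.8 ± 17.0 CPM in accumbens and 97.0 ± 10.03 CPM in dorsal striatum, SD, n = 4 each, log2 fold change -0.23 ± 0.17 SE). Accumbens 1 was above 3 of the dorsal libraries and the other 3 accumbens libraries were below all of them.

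Ppp1r9a encodes neurabin, an actin-binding protein that brings protein phosphatase 1 to dendritic spines. It stood at 1427, 1380.1, 1512 and 1629 CPM in accumbens, against 1879, 1622, 2376 and 1926 CPM in dorsal striatum. Accumbens 4 was just above dorsal striatum 2, and all other accumbens values were below all dorsal ones. The means were 1487 ± 109 CPM in accumbens and 1951 ± 313 CPM in dorsal striatum (SD, n = 4 each, log2 fold change -0.39 ± 0.12 SE). Over the 18 alternatives the log2 fold change lay between -0.47 and -0.21.

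Calcr encodes the calcitonin receptor, which binds amylin when paired with a receptor activity-modifying protein (RAMP). Its counts were 60, 42, 61 and 11 in accumbens, against 3, 5, 0 and 3 in dorsal striatum. In CPM these were 5.38, 3.58, 4.82 and 0.911 in accumbens and 0.355, 0.530, 0 and 0.296 in dorsal striatum, so the regions did not overlap but accumbens 4 lay close to the dorsal values. The means were 3.67 ± 1.99 CPM in accumbens and 0.295 ± 0.221 CPM in dorsal striatum (SD, n = 4 each), a 12.4-fold ratio of means near the detection floor and a log2 fold change of 3.55 ± 0.98 SE. Over the 13 alternatives that gave a value, the log2 fold change of Calcr lay between 2.99 and 3.97.

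Asb4, whose product recruits substrates to a Cul5 ubiquitin ligase, had 23, 14, 13 and 33 counts in accumbens and 5, 2, 5 and 19 counts in dorsal striatum. Its means were 1.75 ± 0.794 CPM in accumbens and 0.842 ± 0.717 CPM in dorsal striatum (SD, n = 4 each, log2 fold change 1.04 ± 0.91 SE). The regions overlapped through dorsal striatum 4, the highest dorsal library for Asb4 as for Peg10. Over the 16 alternatives that gave a value, the log2 fold change of Asb4 lay between 0.72 and 2.52. It was 0.72 without dorsal striatum 2 and 0.74 without accumbens 4. Without dorsal striatum 4 it was 1.80, in limma-voom 1.76 and with glial markers as a covariate 2.52.

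Pon2 and Pon3 encode paraoxonases, enzymes that hydrolyse lactones and limit lipid oxidation. Pon2 had 44, 34, 16 and 63 counts in accumbens and 11, 12, 2 and 3 counts in dorsal striatum. Its means were 3.33 ± 1.67 CPM in accumbens and 0.787 ± 0.578 CPM in dorsal striatum (SD, n = 4 each, log2 fold change 2.06 ± 0.86 SE), and accumbens 3 at 1.26 CPM lay below dorsal striatum 1 and 2 at 1.30 and 1.27 CPM. With the mean level of glial markers in the fit the Pon2 log2 fold change was 1.17. Pon3 had 0 counts in every accumbens library and 2, 3, 0 and 3 counts in dorsal striatum, all at or under the floor, so no fold is given.

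Pdk4, a kinase that shuts off the pyruvate dehydrogenase complex, had 3, 11, 12 and 9 counts in accumbens and 2, 7, 13 and 0 counts in dorsal striatum (0.725 ± 0.318 CPM in accumbens and 0.694 ± 0.799 CPM in dorsal striatum, SD, n = 4 each). Neither Pon3 nor Pdk4 passed the filter on low counts, so neither was tested.

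Of the 9 members, 7 passed that filter, and Calcr, Asb4 and Pon2 passed it only because of their accumbens counts. Peg10 was the 1 member called higher in accumbens, where 1.6% of the 12467 tested genes were, and 0 members were called higher in dorsal striatum, where 2.12% were (edgeR quasi-likelihood test, adjusted p under 0.05). The regions did not overlap, with accumbens above, for Peg10 and Calcr, as for 4.51% of tested genes, and with dorsal striatum above for 0 members, as for 5.18%. Because the region contrast was known when the genes were chosen, these counts only describe them.

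**Figure D3:**
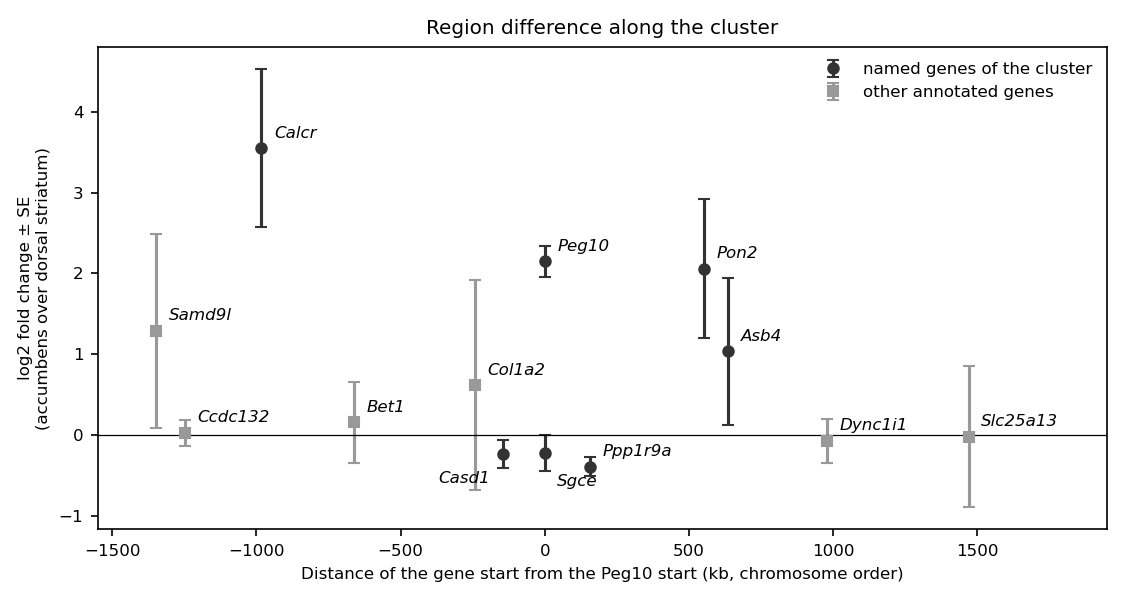
Log2 fold change of accumbens over dorsal striatum (± SE) for the tested members (dark circles) and the tested neighbouring genes (grey squares), placed by the distance of each gene's start from the Peg10 start in kb. Peg10 at 2.15 ± 0.19 stands next to Sgce at -0.22 ± 0.22 and Casd1 at -0.23 ± 0.17, and the wide bars belong to genes of few counts.

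To compare genes with each other, mean CPM was divided by the length of the union of a gene's exons. In accumbens the levels were 188 CPM per kb for Peg10, 102 for Ppp1r9a, 20.5 for Casd1 and 2.68 for Sgce. In dorsal striatum they were 134 CPM per kb for Ppp1r9a, 42.3 for Peg10, 24.0 for Casd1 and 3.12 for Sgce. Within each region neighbours in this order did not overlap over the 4 libraries on this length. Below them in accumbens came Calcr at 0.939, Pon2 at 0.454, Asb4 at 0.446 and Pdk4 at 0.207 CPM per kb, whose ranges over libraries overlapped, and Pon3 at 0. In dorsal striatum Asb4, Pdk4, Pon2, Calcr and Pon3 lay between 0.0628 and 0.214 CPM per kb and overlapped. Dividing by the longest annotated transcript instead kept the order of the 4 highest means in both regions, but in accumbens Peg10 at 148 to 224 CPM per kb and Ppp1r9a at 145 to 171 CPM per kb then overlapped. On that length Ppp1r9a averaged 156 CPM per kb in accumbens and 204 in dorsal striatum, Sgce 6.44 in accumbens and 7.495 in dorsal striatum, and Pon2 1.18 in accumbens, above Calcr, and 0.278 in dorsal striatum.

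The spread between libraries of a region, beyond counting error, was larger in members of low counts. It was estimated with each gene's value drawn toward that fitted for its abundance, so part of this follows from the method. The biological coefficient of variation was 0.143 for Ppp1r9a, 0.185 for Casd1, 0.194 for Peg10 and 0.233 for Sgce, and 0.729 to 0.754 for Calcr, Asb4 and Pon2. For Peg10 the value of 0.194 was above the 0.155 fitted for genes of its abundance, and for the other tested members it was below the fitted value.

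Over the 8 libraries, the log2 CPM of Peg10 and Sgce had a Pearson r of -0.56, that of Peg10 and Calcr 0.91, that of Peg10 and Ppp1r9a -0.83, and that of Sgce and Pon2 -0.91. These values hold the region difference itself and are a description over libraries that share region, scaling and depth. After removal of each region's mean, r was 0.37 for Peg10 with Sgce, 0.57 for Peg10 with Calcr, -0.44 for Peg10 with Ppp1r9a and -0.85 for Sgce with Pon2.

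The transcripts whose levels most resembled those of Peg10 over the 8 libraries, among 9484 tested genes averaging at least 5 CPM, were Kl (r = 0.995), Fat1 (0.990), Timp2 (0.989), Epb4.1l4b (0.985) and Kcnd3 (0.984). Kl, the anti-ageing gene klotho, averaged 15.1 CPM in accumbens and 6.47 CPM in dorsal striatum, and Fat1, a giant cadherin, 153 CPM in accumbens and 51.2 CPM in dorsal striatum. Timp2, an inhibitor of metalloproteinases, averaged 512 CPM in accumbens and 364 CPM in dorsal striatum, and Kcnd3, an A-type potassium channel, 96.1 CPM in accumbens and 43.5 CPM in dorsal striatum. All 5 were higher on average in accumbens, as Peg10 was, and after removal of the region means their r with Peg10 was 0.76 to 0.96. For Sgce the closest were Kmt2e (r = 0.961), Igfbp4 (0.951), Ralgps2 (0.950), Wdr25 (0.943) and Tbl1xr1 (0.940), each lower on average in accumbens. No gene was in both sets of 5, as the r of -0.56 between Peg10 and Sgce already required. The genes were picked as the highest of many r values, so the size of r is fixed by that choice. The direction between regions that they share with Peg10 or Sgce follows largely from it too.

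The genes around the members were taken by position, not by value. Within 1 Mb of the span, 16 other annotated genes were in the files and 6 had enough counts to be tested. None of the 6 was called in either direction by edgeR, nor any of the 5 with an adjusted p in DESeq2. Of the 6, 0 had an unadjusted p under 0.05 in edgeR, against 14.8% of all tested genes, and for so few genes 0 is near that share. Samd9l, Col1a2 and Slc25a13 averaged 1.56, 1.21 and 1.69 CPM over all libraries. Their SEs were 0.87 to 1.3, so a moderate difference in them could go uncalled. Ccdc132, an endosomal trafficking gene now named Vps50 and the nearest tested neighbour beyond Calcr, averaged 114 ± 13.98 CPM in accumbens and 112 ± 18.6 CPM in dorsal striatum (SD, n = 4 each, log2 fold change 0.03 ± 0.16 SE, edgeR adjusted p = 0.965). Dync1i1, a dynein subunit and the nearest beyond Pdk4, averaged 28.5 ± 8.78 CPM in accumbens and 29.9 ± 6.19 CPM in dorsal striatum (log2 fold change -0.07 ± 0.27 SE, edgeR adjusted p = 0.950). Within the span Bet1 had a log2 fold change of 0.16 ± 0.50 SE (edgeR adjusted p = 0.941) and Col1a2 of 0.62 ± 1.30 SE (edgeR adjusted p = 0.888). The Col1a2 value varied with the libraries used, with a log2 fold change of 2.92 without dorsal striatum 3 (edgeR adjusted p = 0.449) and of 3.33 without accumbens 2 and dorsal striatum 3 together (edgeR adjusted p = 0.193). The microRNA genes Mir489 and Mir653, which lie in an intron of Calcr, were at 0 in all 8 libraries, as were Tfpi2, Gngt1 and Pon1. The median log2 fold change was 0.09 over the 6 tested neighbours and 0.02 over all tested genes.

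Genes whose products work with or resemble those of the members were listed by function, with earlier results of these data known. Of 69 such genes in the files 56 were tested, and calls were made for 2 as higher in accumbens and for 1 as higher in dorsal striatum, where 1.6% and 2.12% of all tested genes were called. The median of the 56 log2 fold changes was 0.03, against 0.02 over all tested genes. Both genes higher in accumbens belonged to the list of genes derived, like Peg10, from retrotransposon gag sequences. Of that list 13 were tested, 8 with a positive and 5 with a negative log2 fold change, and 0 were called lower. Because earlier results were known, these calls are a description and give no support to a direction shared with Peg10.

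Zcchc12, a zinc-finger coactivator of BMP signalling from the PNMA family of gag-derived genes, stood at 116, 126, 144 and 148 CPM in accumbens, against 75.6, 65.02, 73.6 and 65.3 CPM in dorsal striatum. Every accumbens library was above every dorsal one. Means were 133 ± 15.2 CPM in accumbens and 69.9 ± 5.51 CPM in dorsal striatum (SD, n = 4 each, log2 fold change 0.93 ± 0.15 SE, edgeR adjusted p = 0.00126), and the call held in all 18 alternatives. Pnmal2, of the same family, stood at 513, 516, 541 and 536 CPM in accumbens, against 395, 382, 337 and 223 CPM in dorsal striatum (log2 fold change 0.66 ± 0.15 SE, edgeR adjusted p = 0.0193). Its regions also did not overlap. The Pnmal2 call was lost with the glial marker covariate (log2 fold change 0.42, edgeR adjusted p = 0.586), without accumbens 3 (adjusted p = 0.0554), without dorsal striatum 3 (adjusted p = 0.0554) and without accumbens 2 and dorsal striatum 3 together (adjusted p = 0.0769). The other 11 tested genes of the list were not called, and the list's median log2 fold change was 0.14.

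Of the calcitonin family, 4 of 9 genes were tested and none was called by edgeR. Calcrl, the receptor for CGRP and adrenomedullin, and Ramp3, an accessory protein of both Calcr and Calcrl, are described after their values were seen. Both passed the filter on low counts only because of their accumbens counts, so their p-values are a description and support nothing. Ramp3 had 70, 38, 91 and 22 counts in accumbens and 0, 8, 6 and 7 counts in dorsal striatum, means of 4.63 ± 2.52 CPM in accumbens and 0.592 ± 0.401 CPM in dorsal striatum (log2 fold change 2.94 ± 0.92 SE, edgeR adjusted p = 0.0943, DESeq2 adjusted p = 0.0127). Ramp3 was called in 1 of 18 alternatives, DESeq2, and not with the glial marker covariate (edgeR adjusted p = 0.589). As for Calcr, accumbens 1 and 3 were the highest libraries and accumbens 4 the lowest of its region.

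Calcrl stood at 4.84, 3.92, 9.64 and 18.3 CPM in accumbens, against 1.89, 2.97, 0.138 and 0.690 CPM in dorsal striatum (log2 fold change 2.67 ± 0.76 SE, edgeR adjusted p = 0.0617, DESeq2 adjusted p = 0.00594). Here accumbens 4 was the highest library. The edgeR call was made without accumbens 2 (adjusted p = 0.0383), without dorsal striatum 2 (adjusted p = 0.0451) and with no filter on low counts (adjusted p = 0.0122). With DESeq2 included, Calcrl was called in 4 of 18 alternatives. The edgeR call was not made without accumbens 4, the highest library, where the log2 fold change was 2.09 (adjusted p = 0.256). Nor was it made with the replicate block (edgeR adjusted p = 0.147) or the glial marker covariate (edgeR adjusted p = 0.520). Ramp1, which pairs with Calcrl to form the CGRP receptor and was the most abundant gene of the family, averaged 27.9 CPM in accumbens and 26.8 CPM in dorsal striatum (log2 fold change 0.06 ± 0.25 SE, edgeR adjusted p = 0.958). Ramp2 averaged 1.27 CPM in accumbens and 3.05 CPM in dorsal striatum (log2 fold change -1.25 ± 1.0 SE, edgeR adjusted p = 0.647). The ligand genes Adm, Adm2, Calcb and Iapp, the last of which encodes amylin, were at 0 in all 8 libraries, and Calca, which encodes CGRP, had 3 counts in accumbens 4, 28 in dorsal striatum 2, 1 in dorsal striatum 1 and 0 in the other libraries.

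**Figure D4:**
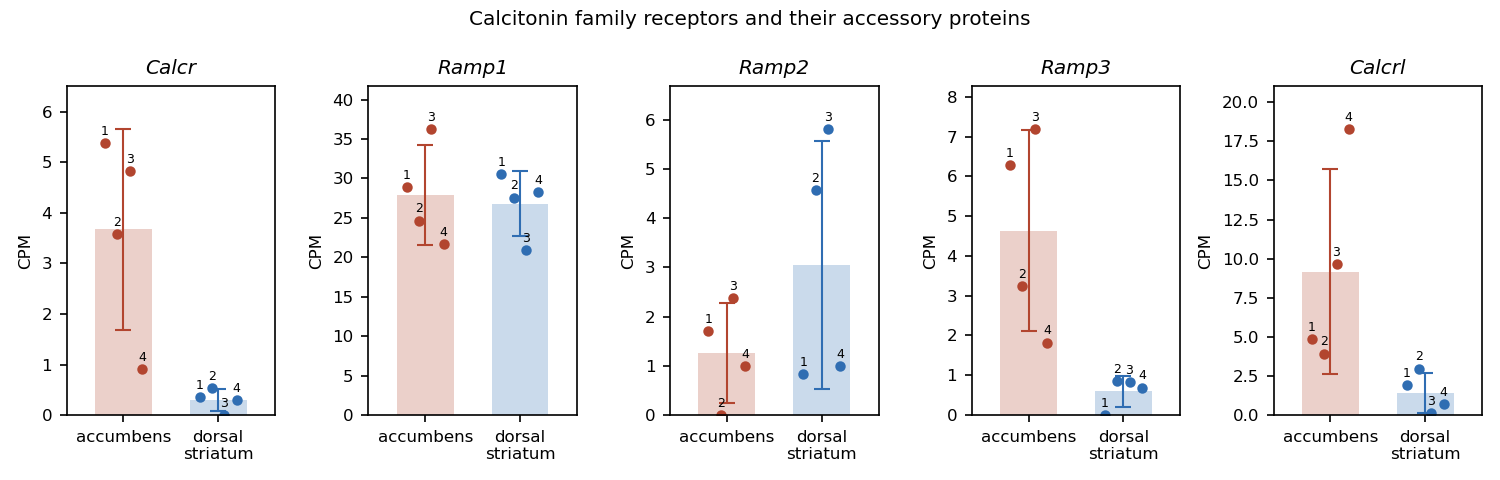
CPM of Calcr and of the tested calcitonin family genes by library, with accumbens left of dorsal striatum, bars as means, error bars as SD (n = 4) and points numbered by replicate. Accumbens 4 was the lowest accumbens library for Calcr and Ramp3 and the highest for Calcrl.

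Markers of other cell types also varied among these libraries. Summed astrocyte markers stood at 703, 511, 512 and 258 CPM in accumbens libraries 1 to 4, against 239, 375, 260 and 199 CPM in dorsal striatum libraries 1 to 4, and accumbens 4 was low in these as in Calcr and Ramp3. All 9 astrocyte markers were detected, and of the 7 tested 1 was called higher in accumbens. Summed endothelial markers stood at 96.8, 5.72, 27.9 and 275 CPM in accumbens, against 7.45, 47.3, 99.2 and 18.3 CPM in dorsal striatum, with all 8 endothelial markers detected and none called. Accumbens 4 was the highest library in endothelial markers and in Calcrl. Dorsal striatum 3 was the next highest in endothelial markers and the lowest in Calcrl. Summed microglia markers stood at 4.80 to 15.3 CPM in accumbens and 0.985 to 4.24 CPM in dorsal striatum without overlap, although C1qa was at 0 in all 8 libraries and 1 gene of the list was tested. Oligodendrocyte markers summed to 127 to 323 CPM in accumbens and 122 to 191 CPM in dorsal striatum. With glial markers as a covariate the log2 fold change was 2.99 ± 1.3 SE for Calcr and 2.38 ± 0.25 SE for Peg10. It was 2.83 ± 1.3 SE for Ramp3 and 2.20 ± 0.92 SE for Calcrl, neither of them called. Over all genes, 47 were called higher in accumbens in that fit, against 200 without the covariate. The fit with the covariate is a description, and the part of glial, endothelial or mural cells in these values was not tested.

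Among the partners of Sgce, 13 genes of the sarcoglycan and dystrophin complex were tested, 0 were called in either direction, 1 had an unadjusted p under 0.05 (against 14.8% of all tested genes), and the median log2 fold change was 0.05. Dtna, dystrobrevin alpha and the most abundant, averaged 235 ± 27.8 CPM in accumbens and 235 ± 18.5 CPM in dorsal striatum (SD, n = 4 each, log2 fold change 0.00 ± 0.13 SE, edgeR adjusted p = 0.999). Sntb2, a syntrophin named after its values were seen, averaged 21.2 CPM in accumbens and 38.9 CPM in dorsal striatum without overlap (log2 fold change -0.87 ± 0.24 SE, edgeR adjusted p = 0.0525) and was called by DESeq2 and with no filter on low counts.

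Among 6 protein phosphatase 1 subunits and neurabin partners none was called by edgeR, 3 had an unadjusted p under 0.05 (against 14.8% of all tested genes), and the median log2 fold change was -0.23. Ppp1r9b, spinophilin and the closest relative of neurabin, averaged 356 ± 54.0 CPM in accumbens and 335 ± 15.6 CPM in dorsal striatum (log2 fold change 0.09 ± 0.13 SE, edgeR adjusted p = 0.835). Tiam1, a Rac activator chosen after its values were seen, averaged 222 ± 18.8 CPM in accumbens and 164 ± 4.95 CPM in dorsal striatum without overlap (log2 fold change 0.44 ± 0.13 SE, edgeR adjusted p = 0.0661, DESeq2 adjusted p = 0.0109).

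Of 10 genes of pyruvate dehydrogenase and its regulation, where Pdk4 acts, 1 was called and it was lower in accumbens. Pdp1, the phosphatase that switches the complex back on, stood at 80.2, 104, 91.1 and 95.6 CPM in accumbens, against 153, 150.4, 121 and 166 CPM in dorsal striatum. All accumbens values were below all dorsal ones (log2 fold change -0.67 ± 0.15 SE, edgeR adjusted p = 0.0174). The call held in 12 of 18 alternatives. It was lost with the glial covariate (edgeR adjusted p = 0.260), without accumbens 1 (adjusted p = 0.0747) or accumbens 3 (adjusted p = 0.0543), and without dorsal striatum 1, 2 or 4 (adjusted p = 0.0610, 0.0543 and 0.0596). In these 6 fits the log2 fold change of Pdp1 was -0.66 to -0.60, against -0.67 with all libraries. Dlat, the most abundant gene of the list, had a log2 fold change of 0.12 ± 0.16 SE (edgeR adjusted p = 0.811).

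None of the 4 tested partners of the Cul5 ligase that Asb4 serves was called, nor any of the 6 tested genes of sialic acid metabolism, where Casd1 acts. In either list 0 genes had an unadjusted p under 0.05 in edgeR, against 14.8% of all tested genes. For lists this short 0 is near that share. The median log2 fold changes of the lists were 0.11 and -0.04. Cul5 itself had a log2 fold change of -0.21 ± 0.15 SE (edgeR adjusted p = 0.574) and Cmas, which activates sialic acid, of 0.02 ± 0.15 SE (edgeR adjusted p = 0.978).

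**Figure D5:**
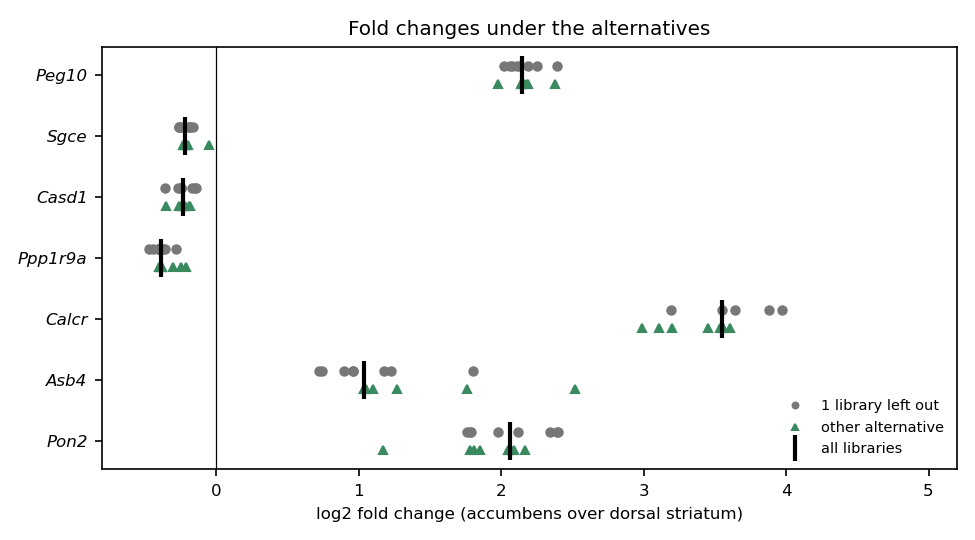
Log2 fold change of accumbens over dorsal striatum for the tested members on all libraries and under each alternative that gave a value. Black bars are all libraries, circles leave 1 library out and triangles are the other alternatives. Peg10 lay between 1.98 and 2.39 in all 18, and Calcr between 2.99 and 3.97 in 13.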

How the data were processed

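Immunopurified ribosome-bound RNA of 4 accumbens and 4 dorsal striatum libraries was used. The authors deposited 1 raw read count per gene symbol and library. The submitters' processing notes name STAR 2.0.0e, HTSeq and the mm10 build. The sources used here do not give the annotation or the strand setting. Reads assigned to no gene, which were 35.5% to 40.6% of counted reads in accumbens and 27.1% to 33.8% in dorsal striatum, and a row named unknown, at 0 throughout, were left out.

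The regions were compared by the quasi-likelihood test of edgeR 4.0.16 (R 4.3.3) after TMM scaling and a filterByExpr minimum of 10 counts, with region as the only term and Benjamini-Hochberg adjustment over 12467 tested genes, calling at 0.05. The edgeR code was tested on simulated data. CPM uses TMM-scaled totals, log2 CPM a prior count of 2, and SEs were derived from fold changes and F statistics. Positions are from GENCODE M21 and promoters from RefSeq GRCm38.p6. Older gene symbols were matched through synonyms.

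The alternatives were upper-quartile and RLE normalization, no filter, a floor of 1 CPM in 4 or more libraries, DESeq2 1.42.0, quality-weighted limma-voom 3.58.1, a block for replicate number, thinning to the smallest library, the mean level of 13 glial markers as a covariate, and each library left out in turn. Leaving out accumbens 2 and dorsal striatum 3 together was added after seeing the data, giving 18 in all.

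The members and gene lists were chosen with earlier results of these data known. The rule for named genes took the members, any called neighbour (there was none) and the nearest tested neighbour at each end, the called genes and the most abundant gene of each partner list, Drd1, Drd2 and Rpl10a, and the 5 genes most like Peg10 and the 5 most like Sgce. The other neighbours and partners named, among them Bet1, Col1a2, Samd9l, Slc25a13, Calcrl, Ramp2, Ramp3, Sntb2 and Tiam1, are outside that rule and were chosen after their values were seen. Rpl10a, the tagged protein's gene, averaged 206 ± 25.2 CPM in accumbens and 194 ± 35.3 CPM in dorsal striatum. Replicate pairs within a region differed by more than sampling noise.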

Additional observations from a re-analysis of the deposited data

Results flagged for a closer look

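Among 30 sets of 4 library values looked at, the members and the tested neighbours in each region, 2 held a library far from the other 3, where chance flags about 1 in 20. Samd9l, an interferon-regulated neighbour beyond Calcr, was at 0 CPM in accumbens 3, a gap of 0.845 of the range of the accumbens values. Col1a2, a collagen gene between Calcr and Casd1, stood at 3.32 CPM in dorsal striatum 3, a gap of 0.904 of the range of the dorsal striatum values. Summed endothelial markers were also highest in dorsal striatum 3 among the dorsal libraries, at 99.2 CPM, as were summed mural and fibroblast markers, at 32.1 CPM. In accumbens 4 these sums were 275 and 62.3 CPM, with Col1a2 at 1.99 CPM. The part of these cells in the Col1a2 values was not tested. Without dorsal striatum 3 the log2 fold change of Col1a2 was 2.92, against 0.62 with all libraries. Neither gene was called between the regions.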

How the results depend on the processing

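The members' calls are a description, since the region contrast was known when they were chosen. The count of members called higher in accumbens, 1 with all libraries, was 2 in DESeq2 and 1 to 2 with 1 library left out, and that of members higher in dorsal striatum, 0, was 0 to 1. Partner genes higher in accumbens, 2, were 5 in DESeq2, 3 with no filter and in limma-voom, 1 with the glial covariate, 1 without accumbens 2 and dorsal striatum 3 together, and 1 to 3 with 1 library left out. Partner genes higher in dorsal striatum, 1, were 2 with no filter and in DESeq2, 0 with the glial covariate, and 0 to 1 with 1 library left out. Neighbours had 0 calls in each alternative among those with an adjusted p. Over all genes, 200 higher in accumbens became 350 with no filter, 376 in DESeq2 and 47 with the covariate, and 139 to 191 with 1 library left out. The 264 higher in dorsal striatum became 73 with the covariate and 184 to 236 with 1 library left out. The cause of these shifts was not tested. The median over all genes moved by at most 0.013 (log2) in any alternative.

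Same-numbered libraries deviated together by r of -0.08 to 0.01, so no pairing by number was seen. A weak effect of shared mice could also give r near 0, so pairing is not excluded. The labels do not state it. With the replicate block Peg10 had a log2 fold change of 2.19, and 194 genes were higher in accumbens and 238 in dorsal striatum.

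Signs turned for uncalled genes. Samd9l, at 1.29 with all libraries, was at 0.00 with the covariate. The others were near 0 with all libraries, and of these Cmas was at -0.02 with the covariate. Slc25a13 was at 0.12 in limma-voom and 0.21 without accumbens 2 and dorsal striatum 3 together. Dtna was at 0.01 under RLE, in DESeq2 and with thinning, 0.00 with no filter and 0.03 with the covariate. With 1 library left out, log2 fold changes ran from -0.79 to 0.52 for Slc25a13, -0.07 to 0.07 for Dtna, -0.05 to 0.11 for Cmas, -0.05 to 0.15 for Ccdc132, -0.03 to 0.61 for Bet1, -0.28 to 0.09 for Dync1i1, -0.09 to 0.16 for Ramp1, 0.00 to 0.15 for Ppp1r9b and -0.01 to 0.23 for Dlat.

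Calcr had a value in 13 alternatives, Asb4 in 16 and Col1a2 in 17, since the others left them untested or gave no adjusted p. A count of 3 was as much as 0.415 CPM in the shallowest library, above the mean of Calcr in dorsal striatum.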
